A study of Danio rerio with 12 samples.

Results

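The genes described here are 9 genes of the hypoxia pathway of the zebrafish, *hif1aa*, *hif1ab*, *epas1a*, *epas1b*, *egln2*, *egln3*, *vhl*, *hif1an* and *ddit4*, in regenerating ventricles with and without a functional *grl* gene. They were chosen by name, and all 9 were found among the 32105 genes of the expression table and among the 15602 genes that were tested. The table holds 3 libraries of WT siblings and 3 libraries of homozygous *grl5nt-/-* mutants, all of strain AB, aged 5 months, not treated with any compound, and collected 7 days after resection of the ventricular apex (7 dpa). Each library was made from 6 pooled ventricles. *grl*, listed as *hey2*, encodes a Hairy-related transcriptional repressor, and the mutation is a germline deletion of 5 nucleotides in the first exon, predicted to end the protein early and carried by all cells of the fish. The study compared these genotypes to learn what Grl controls during heart regeneration. A further 6 samples of the series, from fish that overexpress *grl* in cardiomyocytes and their controls, are not analysed here.

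Hif transcription factors consist of an alpha subunit, whose stability depends on oxygen, and a constant partner, Arnt. When oxygen is present, prolyl hydroxylases of the Egln family modify the alpha subunit, Vhl then binds it as the substrate receptor of a ubiquitin ligase, and it is degraded, while the asparaginyl hydroxylase Hif1an keeps it from its coactivators. In low oxygen the alpha subunit persists and switches on genes of glycolysis, vessel growth and stress, and in the zebrafish heart Hif activity has been linked to regeneration after resection. Zebrafish carry duplicated copies of the alpha subunits, *hif1aa* and *hif1ab* for Hif1 and *epas1a* and *epas1b* for Hif2. RNA-seq counts transcripts and says nothing of the hydroxylation or amount of these proteins.

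The libraries held between 12520034 and 15006574 counts. *mt-co1*, a mitochondrial gene, had a count of 0 in WT replicates 1 and 2 and mutant replicate 1 and at least 583890 in the other 3 libraries. The labels name no batch for this split, and differences within each side of it are given below. Each of these rests on a single library of a genotype, mutant replicate 1 without *mt-co1* reads and WT replicate 3 with them. The count of *hey2* was 127 to 256 in WT and 189 to 228 in mutant libraries, and since a small deletion need not change the RNA level, the labels could not be checked by it. All 8 cardiomyocyte markers were counted in every library, with summed levels of 31800 to 45200 CPM in WT and 32300 to 49400 CPM in mutants, where CPM is the count scaled to the library's total after TMM adjustment. Endothelial markers summed to 1190 to 1630 against 1570 to 2370 CPM, erythrocyte markers to 7240 to 33200 against 18300 to 35700 CPM, and epicardial and fibroblast markers to 3080 to 3770 against 2460 to 4140 CPM. In these lists, and in those of leukocytes and of liver and pancreas, no marker passed an adjusted p of 0.05 in edgeR's test. Of 8 cardiomyocyte markers, 3 were higher and 5 lower in mutants, with a median log2 fold change of -0.14. The 5 lower were *vmhc* (-0.94), *tnni1b* (-0.62), *nppa* (-0.44), *actc1a* (-0.17) and *mybpc3* (-0.12). Epicardial and fibroblast markers were 4 higher and 4 lower (median -0.11), endothelial ones 6 and 3 (0.23), and erythrocyte ones 3 and 1 (0.59). The most abundant of each list had log2 fold changes of 0.39 (*myl7*) and 0.41 (*cmlc1*) for cardiomyocytes, 0.58 (*vwf*) and 0.18 (*fli1a*) for endothelium, 0.45 (*hbaa1*) and 0.87 (*alas2*) for erythrocytes, 0.09 (*col1a1a*) and 0.21 (*col1a2*) for fibroblasts, -0.17 (*tfa*) and 1.3 (*ctrb1*) for liver and pancreas, and -0.47 (*marco*) and -0.24 (*coro1a*) for leukocytes. The groups did not overlap for *myl7*, *fli1a* and *esama*, higher in mutants, and for *lcp1* and *tbx18*, lower, where 15.6% of all genes did not overlap. The epicardial gene *tbx18* had 34.3, 38.4 and 20.6 CPM in WT and 17.4, 7.70 and 12.3 CPM in mutants. Its log2 difference was -1.32 (SE 0.35, adjusted p = 0.314 in edgeR's test, 0.0346 with a term for the *mt-co1* split, and up to 0.93 over its alternatives). The part of *tbx18* in the results below was not tested.

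Between the genotypes, none of the 9 hypoxia genes passed an adjusted p of 0.05 in edgeR's quasi-likelihood test. This threshold was passed by 12 of the 15602 genes tested (0.0769%). At an unadjusted p below 0.05, 1 of the 9 differed, *hif1aa*, which was lower in the mutants. Over all genes 10.6% were past that limit, 6.35% lower and 4.22% higher. The mutant libraries did not overlap the WT libraries for 2 of the 9, *hif1aa* below and *vhl* above, and over all genes 15.6% did not overlap, 8.64% with the mutants below. The median log2 fold change, mutant over WT, was 0.12 for the 9 genes, of which 6 were higher and 3 lower, and -0.05 for all genes. With 1 or 2 of 9 genes past these limits, the share was near the background, and the 9 genes did not stand apart as a group. The p-values measure the spread between 3 pools of fish a genotype, and 3 against 3 cannot give an exact permutation p below 0.1. In whole ventricles, fewer cells of a type and less RNA per cell cannot be told apart.

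**Figure D1:**
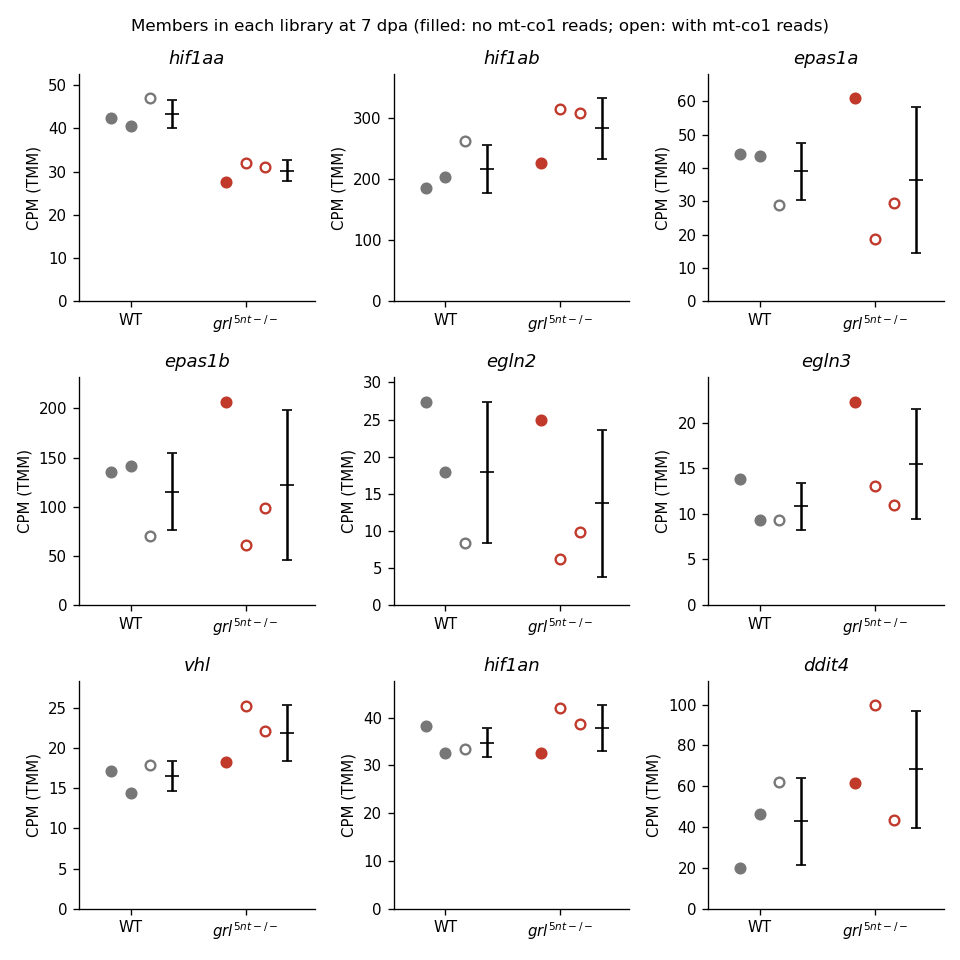
Level of each of the 9 hypoxia genes in CPM (vertical axis, from 0) in each WT library (grey) and each *grl5nt-/-* library (red), in replicate order, with mean and SD (n = 3) beside the points. Filled points are libraries without *mt-co1* reads and open points those with them; all red points lie below all grey points for *hif1aa*, and above them for *vhl*.

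Levels of different genes were compared by FPKM, which divides by transcript length. Over the 6 libraries *hif1ab* was the most abundant at a mean of 30.3 FPKM, followed by *ddit4* at 16.0, *vhl* at 15.9, *epas1b* at 14.8, *hif1an* at 14.1, *hif1aa* at 9.16, *egln3* at 5.83, *egln2* at 5.07 and *epas1a* at 4.13 FPKM. Only the first step in this order exceeded the spread, since *hif1ab* was above *ddit4* in 6 of 6 libraries with no overlap of their ranges. The ranges of all other neighbours overlapped, although *hif1an* was above *hif1aa* in 6 of 6 libraries. Thus the b copy was the more abundant copy of both Hif alpha pairs, with *hif1ab* above *hif1aa* and *epas1b* above *epas1a* in every library.

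*hif1aa* (ENSDARG00000006181, GRCz10 chromosome 13, 31626682 to 31653988) encodes one of the Hif1 alpha subunits. Its count was 818, 681 and 600 in WT and 402, 370 and 318 in mutant replicates 1, 2 and 3. After normalization these were 42.3, 40.6 and 47.0 CPM in WT and 27.5, 32.0 and 31.1 CPM in mutants. Every mutant library lay below every WT library, also in FPKM and in raw counts. WT libraries averaged 43.3 ± 3.30 CPM and mutant libraries 30.2 ± 2.38 CPM (SD, n = 3 each), which is 30.4% lower. The log2 fold change was -0.52 (SE 0.19, 95% interval -0.95 to -0.09, unadjusted p = 0.0234, adjusted p = 0.415 in edgeR's test), and the two-sided exact permutation test gave p = 0.1, the smallest it can give. On each side of the *mt-co1* split the difference was of like size, -0.59 without *mt-co1* reads and -0.57 with them. With a term for that split the adjusted p was 0.0565, the lowest of the 14 alternatives tried, which ranged up to 0.98. When single libraries were left out, the fold change stayed between -0.56 and -0.44, and the unadjusted p was below 0.05 only without mutant replicate 2. When FPKM were tested the log2 fold change was -0.74 or -0.81, by pseudocount, where the median of all genes was also shifted, to -0.21 and -0.33. The size of the *hif1aa* difference thus depends on the scaling, while its direction did not.

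Macrophages and neutrophils are known to express Hif1 alpha, and some leukocyte markers were also lower in the mutants. Of 9 such markers, 6 were lower and 3 higher. The 4 past an unadjusted p of 0.05, where 6.35% of all genes were past it in this direction, were *mpeg1.1* (log2 fold change -0.79), *csf1ra* (-1.34), *lcp1* (-0.53) and *ptprc* (-1.72). The higher ones were the neutrophil genes *mpx* (0.40) and *lyz* (0.39) and the macrophage gene *mfap4* (0.28), none past that limit. None of the 9 was at 0 in any library. Their summed level was 417, 400 and 242 CPM in WT and 261, 231 and 245 CPM in mutant replicates 1, 2 and 3. Most of this sum was *marco*, *coro1a* and *mpeg1.1*. Among libraries with *mt-co1* reads the sum was nearly level, while *ptprc*, *csf1ra* and *lcp1* were lower in mutants there too, by log2 differences of -0.79, -0.52 and -0.32, and *mpeg1.1* was at -0.05. The part of leukocytes in the *hif1aa* result was not tested.

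*hif1ab* (ENSDARG00000034293, chromosome 20, 20426938 to 20455904), the other Hif1 alpha copy, did not share this pattern. It had 186, 203 and 262 CPM in WT and 226, 315 and 309 CPM in mutant libraries. Mutant replicate 1 lay within the WT range. The means were 217 ± 39.8 and 283 ± 49.5 CPM (SD, n = 3 each), a log2 fold change of 0.38 (SE 0.25, 95% interval -0.19 to 0.96, adjusted p = 0.562 in edgeR's test). In FPKM the genotypes were closer, at 29.4 ± 1.49 and 31.2 ± 0.334 (SD, n = 3 each), and over all alternatives the log2 fold change ran from 0.08 to 0.56. The size of the *hif1ab* difference thus depends on the scaling.

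The balance of the copies, a ratio within each library that does not depend on scaling between libraries, separated the genotypes. *hif1aa* was at 0.447, 0.393 and 0.352 of the FPKM of *hif1ab* in WT replicates 1, 2 and 3, and at 0.238, 0.200 and 0.197 in the mutants. The ratio averaged 0.397 ± 0.0473 in WT and 0.212 ± 0.0231 in mutant libraries (SD, n = 3 each), with a gap between the groups. In counts the mean log2 difference of this ratio was -0.91, with -0.81 on the side without *mt-co1* reads and -0.83 on the side with them. Of 8 ratios that were computed, 6 of them relative to *hif1ab*, this was the one without overlap. The ratios were chosen after the values had been seen and are given without a test. The summed FPKM of *hif1aa*, *hif1ab*, *epas1a* and *epas1b* overlapped, at 47.0 to 69.3 in WT and 44.1 to 72.5 in mutant libraries. Of this sum, *hif1aa* made up 17.7% to 20.8% in WT and 10.3% to 14.0% in mutant libraries. The sum leaves out *hif1al* and *hif1al2*, further genes of the Hif alpha family. *hif1al* averaged 23.8 FPKM in WT and 45.1 FPKM in mutants, and *hif1al2* 17.8 and 21.9 FPKM. Averaged over all libraries *hif1al*, at 34.5 FPKM, was above *hif1ab*, at 30.3 FPKM. In WT alone its mean was below that of *hif1ab*, which was 29.4 FPKM. Shares that include them were not computed.

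**Figure D2:**
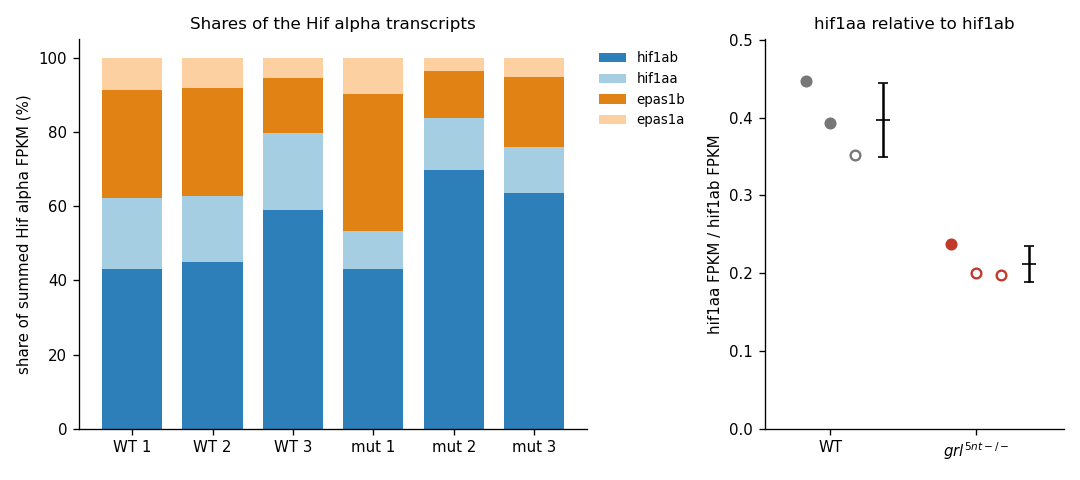
Left, share of each of *hif1aa*, *hif1ab*, *epas1a* and *epas1b* in their summed FPKM (stacked bars, in percent) in each library. Right, ratio of *hif1aa* to *hif1ab* FPKM in each WT (grey) and *grl5nt-/-* (red) library with mean and SD (n = 3), open points being libraries with *mt-co1* reads; it lies between 0.352 and 0.447 in WT and between 0.197 and 0.238 in mutants.

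*epas1a* (ENSDARG00000008697, chromosome 12, 25684399 to 25738189) and *epas1b* (ENSDARG00000057671, chromosome 13, 8043589 to 8114318) encode the Hif2 alpha subunits, which in mammals are prominent in endothelium. *epas1a* had 44.3, 43.6 and 29.0 CPM in WT and 61.0, 18.8 and 29.4 CPM in mutant libraries. *epas1b* had 135, 141 and 70.2 CPM in WT and 207, 60.8 and 98.3 CPM in mutants. Both were highest in mutant replicate 1 and lowest in mutant replicate 2, and the WT values lay between these. The log2 fold changes were -0.10 (SE 0.41, 95% interval -1.03 to 0.84) and 0.08 (SE 0.46, 95% interval -0.96 to 1.13), with adjusted p-values of 0.915 and 0.935 in edgeR's test. Neither has a settled direction, since the sign of *epas1a* turned without mutant replicate 2, among others, and that of *epas1b* without mutant replicate 1 or WT replicate 3 and when FPKM were tested. Values without single libraries ran from -0.67 to 0.22 and from -0.51 to 0.41, and the intervals still allow changes of 1 log2 unit or nearly so.

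Libraries without *mt-co1* reads had 1.93 times the mean CPM of *epas1a* and 2.11 times that of *epas1b* found in the other libraries. The copies varied together over the 6 libraries, with a Pearson r of 0.96 for log2 CPM, a description over libraries that share depth and the *mt-co1* split. Their ratio was correspondingly steady, at 0.309 ± 0.0486 in WT and 0.265 ± 0.00724 in mutants (SD, n = 3 each, in FPKM). Some endothelial markers were ordered in a like way and others were not, and those given here are named after their values had been seen. *cdh5*, the endothelial cadherin gene, had 157, 141 and 53.9 CPM in WT and 142, 31.3 and 52.3 CPM in mutants, and the receptor gene *kdrl* had 165, 160 and 124 CPM in WT and 176, 80.8 and 108 CPM in mutants. Both were lowest in mutant replicate 2, as the *epas1* genes were. By contrast, *tek* had 49.2, 72.2 and 107 CPM in WT and 58.5, 109 and 106 CPM in mutants, and was highest in mutant replicate 2. *pecam1* had 44.9, 50.1 and 67.6 CPM in WT and 51.6, 69.3 and 69.4 CPM in mutants. The sum of the 9 endothelial markers was 1190, 1630 and 1610 CPM in WT and 1570, 1580 and 2370 CPM in mutants. It was not ordered like the *epas1* genes, and most of it was *vwf*, at 536 to 1770 CPM. The part of endothelial cells in the *epas1* levels was not tested.

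*egln2* (ENSDARG00000062562, chromosome 15, 8359529 to 8406926) and *egln3* (ENSDARG00000032553, chromosome 17, 9755992 to 9780871) encode prolyl hydroxylases, and in mammals *EGLN3* is itself induced by Hif. *egln2* had 27.4, 17.9 and 8.31 CPM in WT and 25.0, 6.23 and 9.86 CPM in mutant libraries. It split by *mt-co1* reads, as the *epas1* genes did, with 2.88 times the level in libraries without them. Its log2 fold change between genotypes was -0.38 (SE 0.56, 95% interval -1.66 to 0.90, adjusted p = 0.761 in edgeR's test), with 0.17 and -0.08 on the sides without and with *mt-co1* reads. It was -1.13 without mutant replicate 1 and 0.072 without WT replicate 1.

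*egln3* had 13.8, 9.31 and 9.33 CPM in WT and 22.3, 13.0 and 11.0 CPM in mutants. Mutant replicate 1 was highest, and the other mutant libraries lay within the WT range. The log2 fold change was 0.52 (SE 0.32, 95% interval -0.22 to 1.25, adjusted p = 0.555 in edgeR's test), and it was positive on both sides of the split, at 0.97 and 0.35. With a term for the split it was 0.68 (SE 0.21, unadjusted p = 0.0108, adjusted p = 0.146 in edgeR's test, the lowest of a range up to 0.993 over its alternatives). Without mutant replicate 1 it was 0.18, and when FPKM were tested it was 0.15 or 0.17, by pseudocount.

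*vhl* (ENSDARG00000070617, chromosome 6, 40453734 to 40457573), the receptor of the ubiquitin ligase that removes hydroxylated alpha subunits, had 17.2, 14.4 and 17.9 CPM in WT and 18.3, 25.2 and 22.2 CPM in mutant libraries. Every mutant library was above every WT library, by a narrow gap between mutant replicate 1 and WT replicate 3. The means were 16.5 ± 1.88 and 21.9 ± 3.43 CPM (SD, n = 3 each), a log2 fold change of 0.41 (SE 0.22, 95% interval -0.09 to 0.90, adjusted p = 0.525 in edgeR's test, two-sided exact permutation p = 0.1). In FPKM the groups overlapped, at 18.7, 14.7 and 12.9 in WT and 17.2, 16.7 and 15.3 in mutants. As a ratio to the FPKM of *hif1ab* in the same library, *vhl* was level, at 0.524 ± 0.0891 in WT and 0.526 ± 0.0345 in mutants (SD, n = 3 each). The annotation of *vhl* overlaps that of 1 other gene, which had a mean count of 0.667 and could hold few of its reads.

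*hif1an* (ENSDARG00000031915, chromosome 13, 29822183 to 29849765), the asparaginyl hydroxylase, had 38.2, 32.5 and 33.5 CPM in WT and 32.6, 42.1 and 38.7 CPM in mutants. The groups overlapped, and the ranges were narrow beside those of the prolyl hydroxylases. The log2 fold change was 0.12 (SE 0.20, 95% interval -0.33 to 0.58, adjusted p = 0.787 in edgeR's test), and it turned negative when FPKM were tested.

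**Figure D3:**
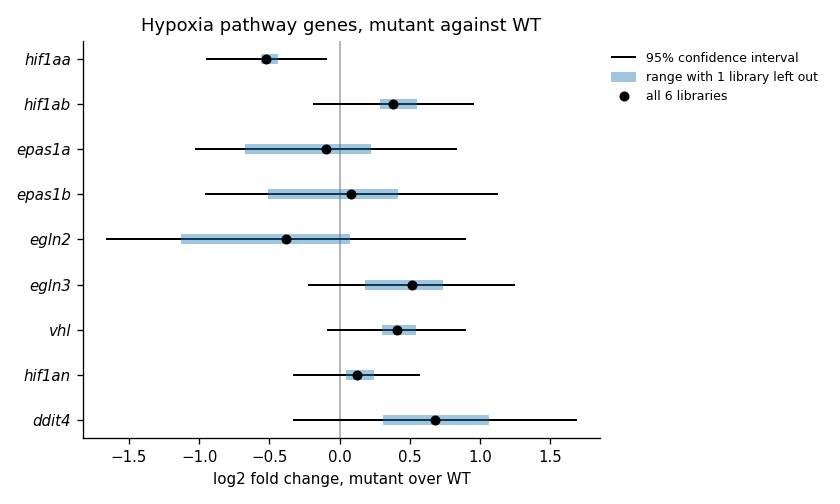
Log2 fold change of each hypoxia gene, mutant over WT, from edgeR's fit (points) with its 95% interval (black lines) and its range when single libraries are left out (blue bars). The interval of *hif1aa*, from -0.95 to -0.09, is the one that leaves out 0.

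*ddit4* (ENSDARG00000037618, chromosome 12, 48356811 to 48358937) is a stress gene, induced in mammals by Hif, by p53 and by glucocorticoids, and its protein restrains the growth kinase complex mTORC1. It had 19.8, 46.3 and 62.1 CPM in WT and 61.8, 99.7 and 43.5 CPM in mutant libraries. WT replicate 1 was far below and mutant replicate 2 far above the rest, and the groups overlapped. Mean levels were 42.7 ± 21.4 and 68.3 ± 28.6 CPM (SD, n = 3 each). In log2 terms the fold change was the largest of the 9 at 0.68 and was also among the least precise (SE 0.44, 95% interval -0.33 to 1.69, adjusted p = 0.561 in edgeR's test). It was 1.03 on the side without *mt-co1* reads and 0.08 on the side with them. Single libraries moved it from 0.31 without mutant replicate 2 and 0.35 without WT replicate 1, where *egln3* was larger, to 1.06 without WT replicate 3.

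The lists of genes linked to *ddit4* gave no call at an adjusted p of 0.05. Of 10 genes around mTORC1, 4 were higher and 6 lower, with a median log2 fold change of -0.03. At an unadjusted p below 0.05, 1 of the 10 differed, where 10.6% of all genes did. It was *tsc1b*, for a subunit of the complex through which Ddit4 acts, at 15.8 ± 2.51 CPM in WT and 10.3 ± 0.475 CPM in mutants (SD, n = 3 each), a log2 fold change of -0.61 (SE 0.22, unadjusted p = 0.0241, adjusted p = 0.416 in edgeR's test) with no overlap. The other copy, *tsc1a*, named after its values had been seen, was more abundant, at 19.3 FPKM beside 2.42 FPKM for *tsc1b*. Its log2 fold change was 0.03 (SE 0.21), and its groups overlapped. The most abundant of this list, *sesn1* and *akt1s1*, had log2 fold changes of -0.0019 and -0.22. Of 10 p53 targets, 6 were higher and 4 lower, with a median of 0.10, and 1 of the 10 was past the unadjusted limit. That gene was *gadd45aa*, a DNA damage and stress gene, at 0.60 (SE 0.25, unadjusted p = 0.0384, adjusted p = 0.457 in edgeR's test). Its groups overlapped, at 15.5, 15.5 and 20.4 CPM in WT and 19.3, 29.7 and 29.1 CPM in mutants. Its list's most abundant gene, *ccng1*, had 0.32.

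Of 8 glucocorticoid targets, 4 were higher and 4 lower, with a median of 0.12. None of these 8 entries was past an unadjusted p of 0.05 in edgeR's test, where 10.6% of all genes were. A further entry with the symbol in capitals, *TSC22D3*, was not counted among them and is named after its values had been seen. It had 9.84, 7.64 and 15.4 CPM in WT and 24.5, 32.5 and 36.8 CPM in mutants, without overlap. Its log2 difference was 1.52 (SE 0.30, unadjusted p = 0.000927 in edgeR's test). It did not pass an adjusted p of 0.05. *fkbp5*, a chaperone of the glucocorticoid receptor that the receptor induces, had 273, 801 and 1450 CPM in WT and 1550, 1850 and 1810 CPM in mutants. WT replicate 1 was lowest and mutant replicate 2 highest of the 6 libraries for *fkbp5*, as for *ddit4*. Mutant replicate 3 was near the top for *fkbp5* and below 2 of the WT libraries for *ddit4*. The same lowest and highest library were found outside this list, as for *hif1ab*, *ccng1* and the Hif targets *eno1a* and *igfbp1a*. *igfbp1a*, named after its values had been seen, had differences of 1.85 and 0.13 on the sides without and with *mt-co1* reads. WT replicate 1 also had the highest TMM factor, 1.305, and mutant replicate 2 the lowest, 0.788. The log2 difference of *fkbp5* was 1.05 (SE 0.53, adjusted p = 0.511 in edgeR's test) and 0.63 to 1.71 with single libraries left out. It was 1.73 on the side without *mt-co1* reads and 0.34 on the side with them. That of *tsc22d3*, another target with the same lowest and highest library, was 0.46. *klf9*, *pdk4* and *zbtb16a*, named after their values had been seen, were instead highest in mutant replicate 1.

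**Figure D4:**
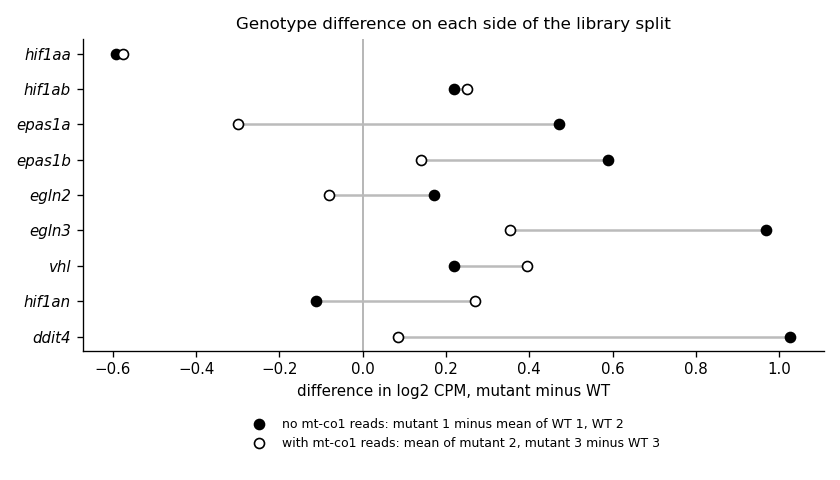
Difference in mean log2 CPM, mutant minus WT, of each hypoxia gene within the libraries without *mt-co1* reads (filled) and within those with them (open). Mutant replicate 1 is the single mutant library behind the filled points, and WT replicate 3 the single WT library behind the open ones. *hif1aa* is at -0.59 and -0.57, while *ddit4* is at 1.03 and 0.08 and *epas1a* changes sign between the sides.

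Of the rest of the Hif machinery, 17 symbols in 19 entries were tested. 12 were higher and 7 lower, with a median log2 fold change of 0.24, and 1 of the 19 was past an unadjusted p of 0.05, a smaller share than the 10.6% of all genes. That entry was *hif1al* (ENSDARG00000100826, chromosome 15, 25568688 to 25592316), a further gene of the Hif alpha family. *hif1al* had 63.8, 102 and 183 CPM in WT and 209, 285 and 280 CPM in mutant libraries. Every mutant library was above every WT library. The genotypes averaged 116 ± 60.8 and 258 ± 42.5 CPM (SD, n = 3 each), and the difference on the log2 scale was 1.15 (SE 0.38, unadjusted p = 0.0153, adjusted p = 0.396 in edgeR's test). Its direction was opposite to that of *hif1aa*, and it was 1.37 on the side without *mt-co1* reads and 0.63 on the side with them. Over its alternatives it ran from 0.86 to 1.65. Its adjusted p ran from 0.0567, with a block for the replicate number in edgeR's test, to 0.938. The elongin B gene *tceb2* and *rbx1*, both parts of the Vhl ubiquitin ligase and the most abundant of the list, had log2 fold changes of 0.27 and 0.45 with overlapping groups. The partner *arnt*, named here after its values had been seen, was scarce at 0.461 FPKM. Its 3.69, 1.90 and 3.52 CPM in mutants lay below the 5.54, 3.76 and 4.55 CPM in WT, a log2 difference of -0.60 (SE 0.36, adjusted p = 0.552 in edgeR's test). The related *arnt2*, also named after its values had been seen, was at 1.67 FPKM, and its groups overlapped. Its log2 difference was -0.98 (SE 0.50, adjusted p = 0.513 in edgeR's test), with -1.33 and 0.39 on the sides without and with *mt-co1* reads.

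Known Hif targets did not move one way. Of 44 symbols, 39 were found and 37 tested, 17 higher and 20 lower, with a median log2 fold change of -0.03 beside -0.05 for all genes. None passed an adjusted p of 0.05 in edgeR's test, and 2 higher and 3 lower targets of the 37 were past an unadjusted p of 0.05, where 10.6% of all genes were. The number lower fell to 1 without WT replicate 1 or mutant replicate 3, and the number higher was 1 without WT replicate 2 and 5 without WT replicate 3. The number lower rose to 5 when FPKM were tested and with a block for the replicate number. The number higher was 4 with that block and with a term for the *mt-co1* split. With a term for the *mt-co1* split, *bhlhe41* and *mxi1* passed an adjusted p of 0.05, in a fit that called 241 of all genes rather than 12. The medians within the sides of the split were -0.05 and 0.05. Several targets widely used to read Hif activity were not past the unadjusted limit. The glycolytic genes *gapdh* and *pgk1*, the most abundant, had log2 fold changes of 0.08 (SE 0.52) and 0.20 (SE 0.35), and, named after their values had been seen, *ldha* had -0.14 (SE 0.25), *vegfaa* 0.31 (SE 0.23) and *vegfab* 0.28 (SE 0.25).

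Of the targets past the unadjusted limit, *bhlhe41* (ENSDARG00000041691, chromosome 18, 16136786 to 16141099) differed most clearly. It encodes a bHLH repressor of the circadian clock that is related in structure to the Hairy family. It had 39.7, 44.6 and 50.5 CPM in WT and 92.2, 88.8 and 87.0 CPM in mutant libraries. The gap between the groups was wider than the range within either, with means of 44.9 ± 5.41 and 89.3 ± 2.65 CPM (SD, n = 3 each) and a log2 fold change of 0.99 (SE 0.20, unadjusted p = 0.000841, adjusted p = 0.164 in edgeR's test). The difference was 1.13 and 0.80 on the sides without and with *mt-co1* reads. Over the 14 alternatives its unadjusted p stayed below 0.05 and its adjusted p ran from 0.00123, with DESeq2, to 0.733, with 0.0153 for the split term in edgeR.

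The others past that limit were split between the directions. *mxi1*, an antagonist of Myc, had 196, 193 and 269 CPM in WT and 348, 398 and 390 CPM in mutants, higher by 0.79 on the log2 scale (SE 0.24, adjusted p = 0.37 in edgeR's test). With the split term its adjusted p in edgeR was 0.0377, the lowest of a range up to 0.959 over its alternatives. *cxcr4b*, a chemokine receptor, had 80.9, 102 and 107 CPM in WT and 62.1, 56.6 and 61.2 CPM in mutants, a log2 difference of -0.69 (SE 0.20, adjusted p = 0.355 in edgeR's test). Neither overlapped between the genotypes, and each kept its direction on both sides of the split. The glucose transporter gene *slc2a1a* had a log2 difference of -1.15 (SE 0.42, adjusted p = 0.418 in edgeR's test) and, outside the limit of 4 genes a list, is named after its values had been seen. So is its other copy, *slc2a1b*, which was far more abundant, at 66.9 FPKM beside 3.14 FPKM. The groups overlapped for *slc2a1b*, with a log2 difference of -0.23 (SE 0.34). *cxcr4b* is also expressed by leukocytes, whose markers are given above, and their part in its level was not tested.

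**Figure D5:**
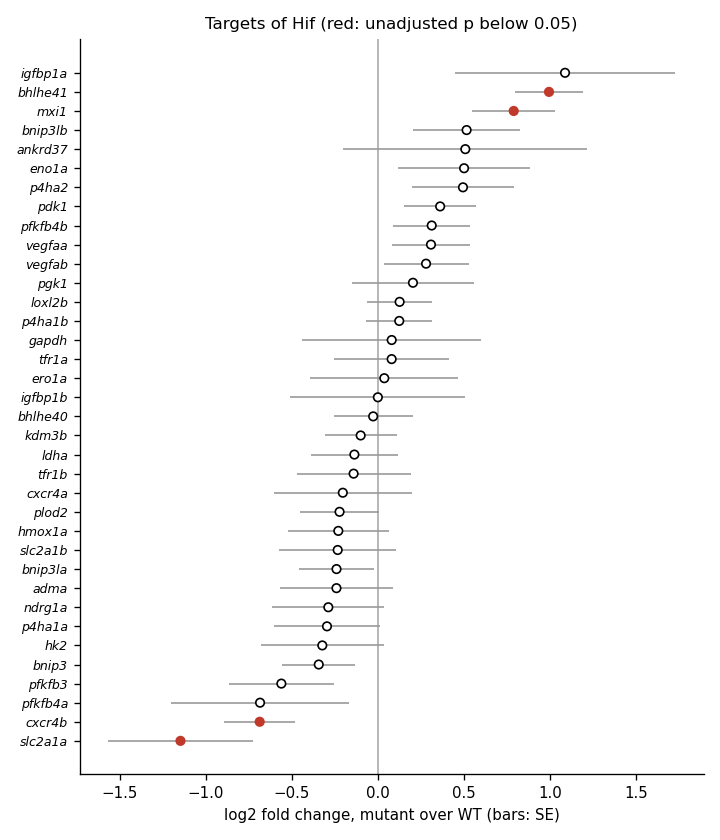
Log2 fold change, mutant over WT, of 36 of the 37 Hif targets that were tested, in order of size, with SE as bars and red points for an unadjusted p below 0.05 in edgeR's test. The points spread on both sides of 0, with *bhlhe41* and *mxi1* past the limit above and *cxcr4b* and *slc2a1a* below.

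The genes whose log2 CPM followed each alpha gene most closely over the 6 libraries were found by Pearson r among all genes tested, as a description without a test. For *hif1aa* they were *cebpb*, a transcription factor of inflammation and acute stress, with r of 0.997, and *mpnd* with 0.993. *cebpb* had counts of 2526, 1822 and 2129 in WT and 649, 706 and 564 in mutants, so it too lay lower in every mutant library (log2 fold change -1.34, SE 0.25, adjusted p = 0.151 in edgeR's test). For *hif1ab* the closest were *bzw1a* and *cltca*, for *epas1a* *cnnm2a* and *otofa*, and for *epas1b* *ssh1b* and *lrrfip1b*, with r between 0.997 and 0.999 and overlapping genotypes for all 6. Since these genes were picked by likeness over the same 6 libraries, they repeat the order of the alpha gene they follow. Their order by genotype is therefore no further result.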

How the data were processed

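RNA of pooled ventricles was sequenced from TruSeq libraries. Seqtk was used by the authors to filter reads, HISAT2 2.0.4 to align them to the GRCz10 assembly, and StringTie 1.3.0 to compute FPKM. The deposited count of each gene is a whole number without normalization, and the deposited FPKM were scaled by the authors for length and mapped reads. The program that counted reads and its use of strand are not given in the sources used here, so overlapping genes, antisense genes and close copies such as the Hif paralogs can share reads. Columns were matched to samples by the letter in the labels. Column totals were 12520034 to 15006574, and a count of 3, the limit of detection, equals 0.155 to 0.293 CPM, for counting error only.

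Counts of the 15602 genes kept by filterByExpr were tested with the quasi-likelihood test of edgeR 4.0.16 (R 4.3.3; TMM, two-sided, Benjamini-Hochberg over all genes tested). Log2 CPM used a prior count of 2. Single genes were compared with the exact permutation test of mean log2 CPM. The alternatives tried were a test with DESeq2 1.42.0, edgeR scaled by size factors, a filter at 1 FPKM or none, limma 3.58.1 on log2 FPKM with a pseudocount of 1 or 0.1, a block for the replicate number, a term for the *mt-co1* split, an adjusted p of 0.1, and each library left out. The ratio of *hif1aa* to *hif1ab* was added after the data had been seen. The test was also run on simulated counts in which 200 of 15602 genes were changed 4-fold, up or down. These counts held no *mt-co1* split, so they cannot show how the test behaves with it.

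All 9 genes are named. From each further list the genes with an unadjusted p below 0.05, at most 4, and the 2 with the highest mean FPKM are named, and for each alpha gene the 2 with the highest r. Of the Hif targets, 1 is counted in the list but not reported here. The lists were the Hif machinery, Hif targets, genes around mTORC1, p53 targets, glucocorticoid targets and markers of cardiomyocytes, endothelium, erythrocytes, leukocytes, epicardium and liver or pancreas, the last with 4 of 5 tested genes higher and a median log2 fold change of 0.65. The genes and lists were chosen with earlier results of these data known.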

Additional observations from a re-analysis of the deposited data

How the results depend on the processing

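The number of genes called, 12 in the test reported, was 242 with DESeq2, 39 without a filter, 4 where genes under a mean of 1 FPKM were dropped, 5 when log2(FPKM + 1) was tested by limma, 241 with a term for the *mt-co1* split, 23 at an adjusted p of 0.1, and 3 to 30 with single libraries left out (3 when mutant replicate 2 or 3 was dropped, 5 when it was WT replicate 1 or 2, and 30 when it was WT replicate 3 or mutant replicate 1). None of these settings brought a hypoxia gene past an adjusted p of 0.05. At an unadjusted p the number lower, 1 as reported, was 0 to 2 with single libraries left out. It was 0 without WT replicate 1, 2 or 3 or mutant replicate 3, and 2 without mutant replicate 1, where *epas1a* and *egln2* took the place of *hif1aa*. The number higher, 0 as reported, was 1 with the split term (*egln3*) and 0 to 1 with single libraries left out, and the number without overlap was 2 to 4. Of 126 values of the 9 genes under alternatives, 112 kept their direction and side of the threshold and 14 turned sign. *epas1b* was at -0.30 and -0.33 in limma on FPKM (pseudocount 1 and 0.1) and -0.51 to 0.41 with single libraries left out. *hif1an* was at -0.17 and -0.18 in limma. *epas1a* was at 0.12 with the split term and -0.67 to 0.22 with libraries left out, and *egln2* at 0.054 and -1.13 to 0.072. The median of the Hif targets was -0.29 and -0.35 in limma, where the median of all genes was also shifted, to -0.21 and -0.33, and -0.08 to 0.01 with libraries left out. Causes were not tested.

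Whether the replicate numbers pair the samples was not settled. The correlation of deviations from the group means was 0.593, -0.338 and 0.385 for numbers 1, 2 and 3, and not every library correlated best with its own number. The *mt-co1* split also enters these deviations, and WT replicate 2 and mutant replicate 2 lie on different sides of it. The correlations therefore cannot decide on pairing. With the replicate number as a block 132 genes were called, *hif1aa* was at -0.52 (adjusted p = 0.225 in edgeR's test, with 0.0565 to 0.98 over its alternatives) and *epas1b* at -0.018.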
